A study of Mus musculus with 6 samples.

Results

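Splenic CD8-positive dendritic cells, also called type 1 conventional dendritic cells or cDC1, carry CD8a on their surface. CD8a is also among the markers by which the CD8 T cells of this study were sorted, together with CD45 and CD3. The 10 genes described here, Xcr1, Clec9a, Cadm1, Itgax, Siglech, Batf3, Irf8, Zbtb46, Wdfy4 and Flt3, were chosen by name for their link to these cells, and all 10 are among the 17744 genes of the authors' table. Cells labelled CD45+ CD3+ CD8a+ were taken from mouse spleen by flow sorting, with a positive cell rate above 90% required before sequencing. The 3 control libraries are labelled as wild type with the treatment control, and the 3 libraries labelled fus irradiation, here called ultrasound 1, 2 and 3, come from animals treated with focused ultrasound, which directs sound energy into a small volume of the body. In the ultrasound samples the genotype label repeats the treatment, so their genotype is not given, and strain, age, dose and interval after treatment are not given in the sources used here. Nothing in the labels says that the samples came from separate animals, so p-values measure the spread between these libraries, which may be technical.

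Conventional dendritic cells take up antigen and present it to T cells, and the CD8-positive subset is known for moving antigen from dead cells onto MHC class I, a process called cross-presentation that primes CD8 T cells. Its development depends on the transcription factors Irf8 and Batf3 and on signals through the receptor Flt3. Clec9a binds actin exposed on dead cells, and Xcr1 is the receptor for Xcl1, a chemokine made by CD8 T cells and NK cells. Several members are shared with other cells: Irf8 and Wdfy4 with B cells, Itgax with macrophages and NK cells, and Siglech is chiefly a marker of plasmacytoid dendritic cells, a different dendritic cell type that makes type I interferon.

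The libraries hold 35024080 to 38113103 reads assigned to genes, recovered from the deposited values. Ultrasound 2 and ultrasound 3 stand apart from the rest: mitochondrial genes took 0.954% and 0.937% of their reads, against 2.05% to 2.70% in the other 4 libraries. No library duplicated another: every pair differed by more than sampling noise (chi-square over its degrees of freedom at least 24.2). The labels name no batch, and since both libraries on that side are ultrasound libraries, this split and treatment cannot be told apart except through ultrasound 1. Each group difference of a member is therefore given with all libraries, without ultrasound 1, and for ultrasound 1 alone against the controls. For single genes of other lists, only the test with all libraries is given.

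All 10 genes were detected in every library, and 9 of 10 were higher in both ultrasound 2 and ultrasound 3 than in every control. Of 14096 genes with a mean of at least 10 reads, 44.3% lay that way. Ultrasound 1 did not share the pattern: it lay between the lowest and highest control for 6 genes, below every control for 3, as for 21.8% of those genes, and above every control for 1, Cadm1, as for 44.6%. Control 1 was the highest of the controls for 10 of 10 genes, against 36.6% of those 14096 genes. In bulk RNA a different number of cells of a type and a different amount of RNA per cell cannot be told apart.

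**Figure D1:**
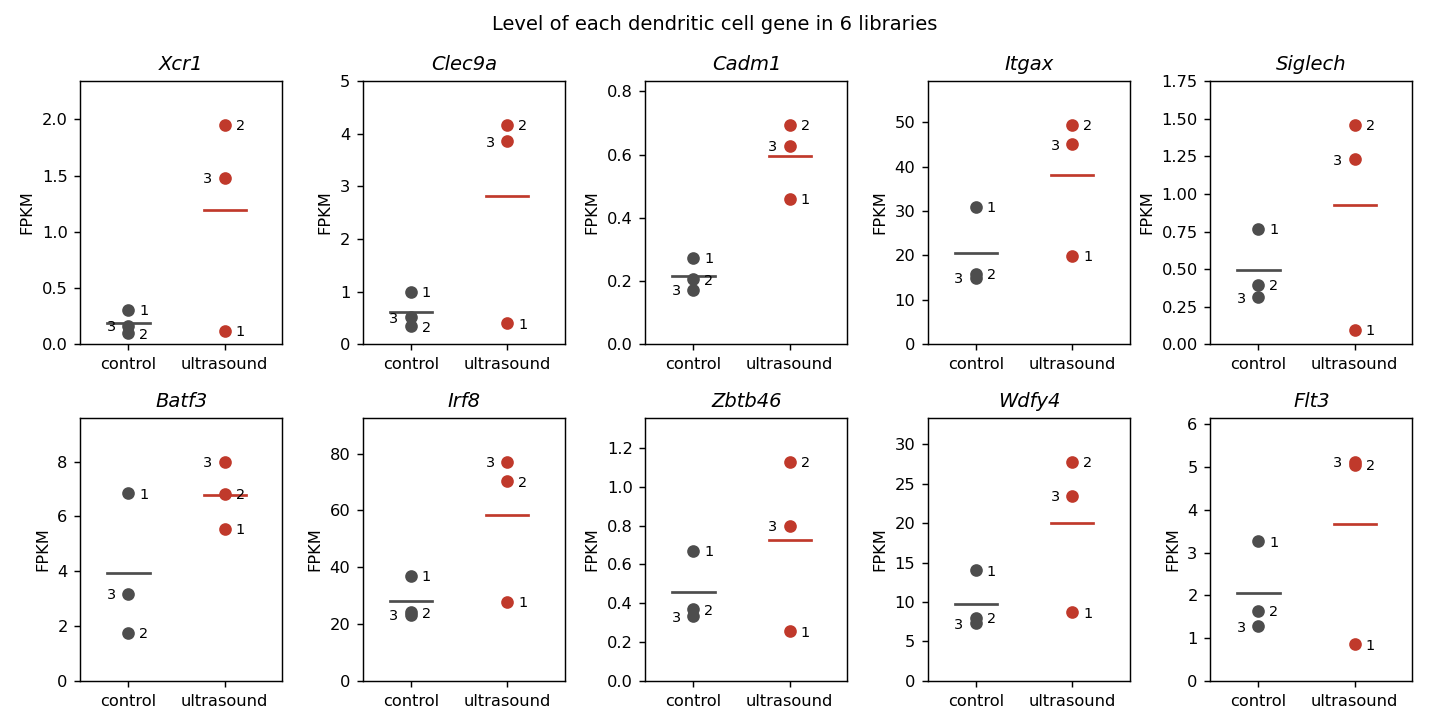
FPKM (fragments scaled to gene length and library size) of each gene, with 1 point per library numbered by replicate, controls in grey, ultrasound libraries in red and a bar at each group mean. Ultrasound 2 and 3 lie above every control in each panel except Batf3, and ultrasound 1 lies among or below the controls in each panel except Cadm1, where it lies above them.

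The surface receptors that define the subset, Xcr1 and Clec9a, were rare in the controls. Xcr1 (NCBI Gene 23832, chr9:123852315-123862029 on GRCm38, minus strand) had 0.305, 0.0962 and 0.165 FPKM in control 1, 2 and 3, and 0.121, 1.95 and 1.48 FPKM in ultrasound 1, 2 and 3. Those values rest on 48, 15 and 26 reads in the controls and 19, 326 and 252 reads in the ultrasound libraries. Ultrasound 2 and ultrasound 3 were high, at 10.33 and 7.86 times the control mean, and ultrasound 1 sat inside the control range at 0.64 times, so the groups overlapped. The exact Poisson 95% interval for ultrasound 2, 7.78 to 9.69 RPM (reads scaled to the library total), lay above that for control 1, 1.0 to 1.80, and such intervals cover counting error only.

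Clec9a (NCBI Gene 232414, chr6:129408862-129424764, plus strand), the dead-cell receptor, had 0.998, 0.338 and 0.508 FPKM in the controls and 0.397, 4.17 and 3.86 FPKM in ultrasound 1, 2 and 3. Ultrasound 2 and 3 were again the high pair, at 6.79 and 6.29 times the control mean, and ultrasound 1 stood at 0.65 times. Its exons share 184 bases with those of Clec1b in the GENCODE M21 annotation, and reads there could belong to either gene.

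The promoters of 4 members are printed here because Xcr1 and Clec9a define the subset, while Itgax and Zbtb46 are the members whose window holds a match to the AP-1 motif TGANTCA, which the Batf3 family recognises. Each window runs from 250 bases before to 50 bases after a RefSeq start site (GRCm38.p6) and reads 5′ to 3′ on the gene's strand, with a motif match in capitals. The windows are chr9:123861980-123862279 (minus strand), chr6:129408612-129408911 (plus), chr7:128129300-128129599 (plus) and chr2:181424339-181424638 (minus), in the order printed.
Xcr1: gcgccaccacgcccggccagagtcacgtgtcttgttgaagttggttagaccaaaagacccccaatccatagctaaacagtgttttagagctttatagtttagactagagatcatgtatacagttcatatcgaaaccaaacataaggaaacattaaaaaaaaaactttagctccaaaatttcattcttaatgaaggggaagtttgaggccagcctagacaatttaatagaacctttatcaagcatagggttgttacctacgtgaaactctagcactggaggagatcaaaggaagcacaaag
Clec9a: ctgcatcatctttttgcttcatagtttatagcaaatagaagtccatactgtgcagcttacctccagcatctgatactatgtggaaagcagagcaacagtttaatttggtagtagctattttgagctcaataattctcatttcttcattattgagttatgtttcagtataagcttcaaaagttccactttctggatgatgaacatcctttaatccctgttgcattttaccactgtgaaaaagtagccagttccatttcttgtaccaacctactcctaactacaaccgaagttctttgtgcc
Itgax: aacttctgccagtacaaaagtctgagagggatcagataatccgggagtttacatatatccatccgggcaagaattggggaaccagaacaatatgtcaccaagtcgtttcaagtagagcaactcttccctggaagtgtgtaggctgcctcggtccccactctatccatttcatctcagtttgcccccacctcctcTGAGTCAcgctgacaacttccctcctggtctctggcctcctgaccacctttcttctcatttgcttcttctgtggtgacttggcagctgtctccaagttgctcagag
Zbtb46: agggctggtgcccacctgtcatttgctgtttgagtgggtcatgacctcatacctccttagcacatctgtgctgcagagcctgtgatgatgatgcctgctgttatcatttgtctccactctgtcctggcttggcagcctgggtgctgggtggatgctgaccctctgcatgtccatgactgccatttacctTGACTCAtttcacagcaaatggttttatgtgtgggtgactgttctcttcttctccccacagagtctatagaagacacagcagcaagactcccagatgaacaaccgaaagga

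RefSeq windows were found for 9 of the 10 members, with 2 start sites for Irf8. The windows of Zbtb46 and Wdfy4 and the second window of Irf8 lie inside the RefSeq span of their gene, so they belong to internal starts and not to its 5′ end. The 5 motifs searched on both strands were TGANTCA, an IRF repeat (GAAA, 2 free bases, GAAA), an ETS-IRF composite (GGAA, 2 free bases, GAAA), the PU.1 site GAGGAAGT and an AP-1-IRF composite (TTTC, 4 free bases, TGANTCA), which contains the AP-1 motif. They occur in 7.81%, 3.44%, 2.72%, 3.2% and 0.119% of 32851 windows of this length. Among the members only the AP-1 motif was found, as TGAGTCA beginning 56 bases before the start site of Itgax and as TGACTCA beginning 61 bases before this internal start of Zbtb46. A match is a description of the letters in this window and not a site of binding.

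Cadm1 (NCBI Gene 54725, chr9:47530170-47862280, plus strand), an adhesion molecule that binds Crtam on activated CD8 T cells, was the member whose groups did not overlap. Its FPKM was 0.274, 0.205 and 0.172 among the controls and 0.461, 0.694 and 0.628 in ultrasound 1, 2 and 3, from 149 to 238 reads and 400 to 641 reads. All 3 ultrasound libraries lay above all controls, as they did for 24.7% of the 14096 genes, and ultrasound 1 stood at 2.13 times the control mean. The FPKM of Cadm1 imply a gene length of 24625 bases, 2.36 times its exon bases in GENCODE M21, so its level is not comparable with that of the other members.

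Itgax (NCBI Gene 16411, chr7:128129526-128150657, plus strand) encodes CD11c, the integrin by which dendritic cells are usually gated. It had 31.0, 15.9 and 14.9 FPKM in the controls and 19.9, 49.4 and 45.0 FPKM in ultrasound 1, 2 and 3. Ultrasound 1, at 0.97 times the control mean, lay between the controls, and ultrasound 2 and 3 reached 2.40 and 2.19 times that mean.

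Siglech (NCBI Gene 233274, chr7:55768154-55779448, plus strand) had 0.769, 0.395 and 0.311 FPKM in the controls. In ultrasound 1 it had the lowest value of all libraries, 0.0964 FPKM from 13 reads, and in ultrasound 2 and 3 it had 1.46 and 1.23 FPKM. Ultrasound 1 was thus at 0.20 times the control mean while ultrasound 2 and 3 were at 2.97 and 2.49 times.

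Among the transcription factors, Irf8 (NCBI Gene 15900, chr8:120736358-120756694, plus strand) was the most abundant member on the authors' scale. Its FPKM was 36.9, 24.2 and 23.3 among the controls and 27.9, 70.2 and 77.2 in ultrasound 1, 2 and 3. Ultrasound 1 lay inside the control range, and ultrasound 2 and 3 were at 2.50 and 2.74 times the control mean.

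Batf3 (NCBI Gene 381319, chr1:191098414-191108943, plus strand), the AP-1 family factor without which the subset does not form, was the exception to the shared pattern. It had 6.84, 1.76 and 3.18 FPKM in the controls and 5.55, 6.82 and 8.0 FPKM in ultrasound 1, 2 and 3. The controls themselves spanned 3.88-fold, the widest span of the 10 members, and control 1 lay above both ultrasound 1 and ultrasound 2.

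Zbtb46 (NCBI Gene 72147, chr2:181371009-181493262, minus strand), a factor of conventional dendritic cells in general, had 0.670, 0.370 and 0.333 FPKM in the controls and 0.255, 1.13 and 0.799 FPKM in ultrasound 1, 2 and 3. Ultrasound 1 was below every control and ultrasound 2 and 3, at 2.47 and 1.74 times the control mean, were above every control.

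Wdfy4 (NCBI Gene 545030, chr14:32959547-33193855, minus strand), a protein required for cross-presentation of cell-associated antigen, had 14.0, 8.0 and 7.31 FPKM in the controls. It had 8.71, 27.8 and 23.5 FPKM in ultrasound 1, 2 and 3, or 0.89, 2.85 and 2.41 times the control mean. Flt3 (NCBI Gene 14255, chr5:147330741-147400489, minus strand), the growth factor receptor, had 3.27, 1.64 and 1.28 FPKM in the controls and 0.853, 5.05 and 5.13 FPKM in ultrasound 1, 2 and 3. For Flt3, ultrasound 1 was again below every control, at 0.41 times their mean.

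**Figure D2:**
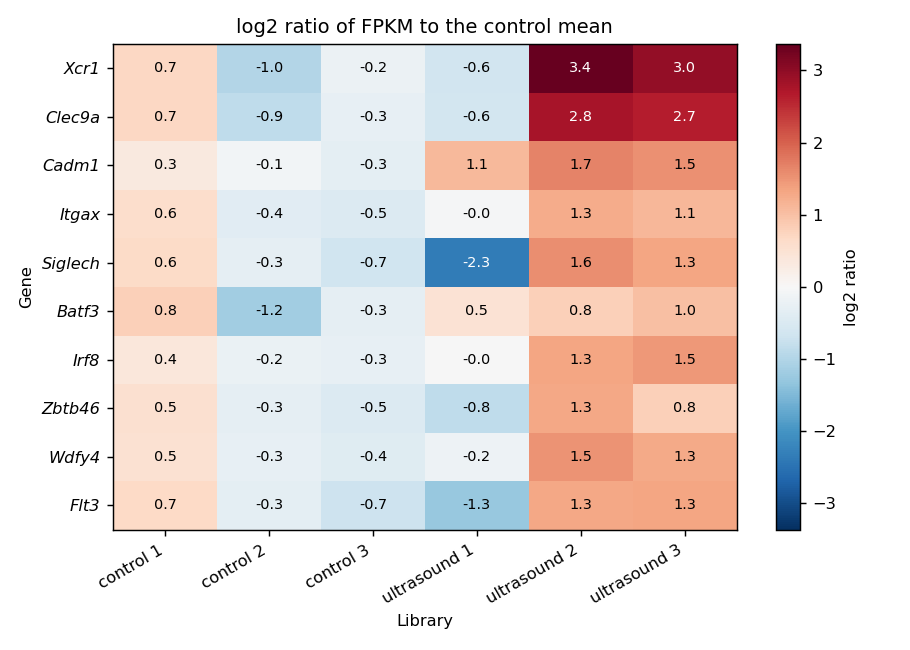
log2 ratio of the FPKM of each gene (rows) in each library (columns) to the mean of the 3 controls, where 0 is the control mean. Control 1 is positive in every row, ultrasound 2 and 3 are positive in every row with the highest values for Xcr1 and Clec9a, and ultrasound 1 is lowest for Siglech and Flt3 and positive for Cadm1 and Batf3.

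In the controls the order of mean FPKM (± SD, n = 3) was Irf8 at 28.1 ± 7.65, Itgax at 20.6 ± 9.04, Wdfy4 at 9.77 ± 3.67, Batf3 at 3.93 ± 2.62, Flt3 at 2.06 ± 1.06, Clec9a at 0.614 ± 0.343, Siglech at 0.491 ± 0.244, Zbtb46 at 0.458 ± 0.184, Cadm1 at 0.217 ± 0.0521 and Xcr1 at 0.189 ± 0.107. The neighbours Irf8 and Itgax, Batf3 and Flt3, Clec9a and Siglech, Siglech and Zbtb46, and Cadm1 and Xcr1 differed by less than the larger of their SDs. The order depends on the gene lengths used: with GENCODE M21 exon bases the control mean was 18.6 for Itgax, 13.7 for Irf8, 1.75 for Batf3 and 0.511 for Cadm1. For comparison, Cd8a, a sort marker, had 302 ± 14.5 FPKM in the controls and 270 ± 33.0 in the ultrasound libraries (SD, n = 3 each).

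The first comparison asked whether the members differed between the ultrasound and control groups. With all 6 libraries, 0 of the 5 members that passed the filter of 1 FPKM in 3 libraries reached an adjusted p of 0.05 in limma, where 8.11% of 10655 genes did. Irf8, Itgax, Wdfy4 and Batf3 passed that filter in all 6 libraries and Flt3 in 5, whereas Clec9a (2 libraries, with 0.998 FPKM in control 1), Xcr1 and Siglech (2 each), Zbtb46 (1) and Cadm1 (0) did not. At an unadjusted p of 0.05, 1 of the 5 passed (Irf8, limma p 0.0498), where 31.2% of genes did, and voom on recovered reads called 0 of 5, where it called 5.33% of genes. The log2 changes, which lie on the log2(FPKM + 1) scale and understate low genes, were 0.93 ± 0.39 for Irf8, 0.87 ± 0.43 for Wdfy4, 0.83 ± 0.40 for Itgax, 0.78 ± 0.36 for Batf3 and 0.47 ± 0.49 for Flt3 (standard error), with limma adjusted p of 0.160 to 0.519. Their median was 0.83 against 0.09 over all genes tested, and 0.71 against -0.02 with median-of-ratios size factors.

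When all genes with a mean of at least 10 reads entered, which kept all 10 members, 0 of 10 passed in limma, where 3.82% of 14096 genes did, and 1 of 10 had an unadjusted p under 0.05, where 27.8% did. That 1 was Cadm1, with a log2 change of 0.39 ± 0.08 (standard error) and a limma adjusted p of 0.0509. Its adjusted p ranged from 0.00387 to 0.225 over the analyses that kept it and was 2.62e-05 in the authors' deposited table. Xcr1 and Clec9a had log2 changes of 0.77 ± 0.35 and 1.04 ± 0.51, with limma adjusted p of 0.207 and 0.232. The log2(FPKM + 1) scale understates these low genes. With voom on recovered reads the log2 changes of Xcr1, Clec9a and Cadm1 were 1.97, 1.65 and 1.34 (voom adjusted p 0.365, 0.361 and 0.0514). The authors' deposited table gives q under 0.05 to 3 of 10 members, Cadm1, Xcr1 (0.0312) and Clec9a (0.0491), where 12.3% of all its genes do, and their log2 fold changes there are 1.33, 2.51 and 2.06.

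The result turned on ultrasound 1. Without it, 9 of 10 members were higher with an adjusted p under 0.05 in limma (all but Batf3, at 0.149), where 28.7% of genes were called higher and 44.2% were called in either direction. Xcr1 then had a log2 change of 1.19 ± 0.11 (limma adjusted p 0.00151), Clec9a 1.66 ± 0.18 (0.00180), Irf8 1.39 ± 0.21 (0.00570), Wdfy4 1.36 ± 0.27 (0.0139), Itgax 1.23 ± 0.32 (0.0299) and Flt3 1.05 ± 0.27 (0.0265). Siglech, Zbtb46 and Cadm1 rose by 0.66 ± 0.14, 0.43 ± 0.13 and 0.45 ± 0.07, each with an adjusted p between 0.00387 and 0.0377. Ultrasound 1 alone against the controls gave 0 of 10 members in limma, where 1.06% of genes were called, with 1 at an unadjusted p under 0.05 (Cadm1, p 0.0137), where 20.3% of genes lay under it, and 4 of 10 in the positive direction. This last fit assumes that the lone library varies as the controls do.

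**Figure D3:**
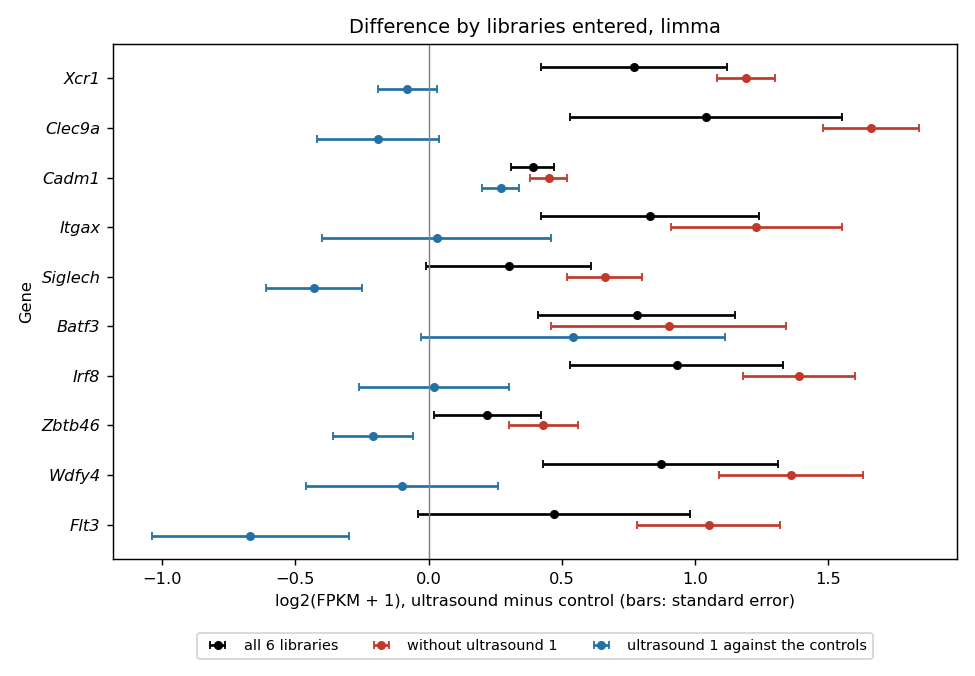
limma difference in log2(FPKM + 1), ultrasound minus control, for each gene over genes with a mean of at least 10 reads; points are estimates and bars standard errors, for all 6 libraries (black), without ultrasound 1 (red) and for ultrasound 1 against the controls (blue). The red points are positive for all 10 genes, while the blue points lie at or below 0.03 for all but Cadm1 and Batf3. The scale understates low genes, so the order of the points is not that of the fold changes.

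Over the 10 members the median log2 ratio to the controls was -0.29 in ultrasound 1, 1.49 in ultrasound 2 and 1.43 in ultrasound 3. This ratio is taken in reads per library total, with 0.5 reads added, against the mean of the control log2 values, and so differs from a ratio to the mean FPKM. Over 14096 genes the same medians were 0.09, 0.19 and 0.12. The members varied among themselves from 1.01 to 3.50 in ultrasound 2, with Xcr1 and Clec9a the highest, and from -2.20 (Siglech) to 1.11 (Cadm1) in ultrasound 1.

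The proportion of Xcr1 to Clec9a was compared across libraries, since both mark the same subset. Xcr1 gave 29.3%, 27.8% and 30.6% of the Xcr1 and Clec9a reads in control 1, 2 and 3 and 29.2% in ultrasound 1. Its share was 38.8% in ultrasound 2 (exact Clopper-Pearson 95% interval 35.5% to 42.2%) and 34.2% in ultrasound 3 (30.8% to 37.7%), and the intervals of all 4 other libraries, which reach from 16.5% to 41.8%, overlapped both. Those 4 libraries hold only 54 to 164 reads of both genes together, and a difference between groups in this proportion was not tested.

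**Figure D4:**
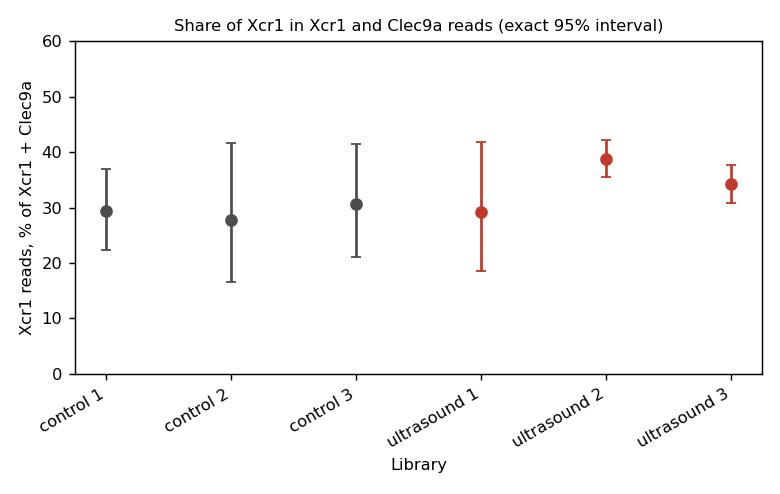
Share of Xcr1 in the summed reads of Xcr1 and Clec9a, in percent, for each library, with exact 95% binomial intervals that cover counting error only. The controls and ultrasound 1 lie between 27.8% and 30.6%, and ultrasound 2 and 3 at 38.8% and 34.2% with intervals that overlap those of the others.

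Other genes of the dendritic cell program were taken from lists that the members did not enter, and their counts are over all genes tested in the limma fit with 6 libraries, where 6.55% were called higher and 1.56% lower. Over these lists and the marker lists of other cells, 23 of 104 tested genes passed, 22 higher and 1 lower. Of the 22, Fkbp1b, Clec10a, Mmp8 and Cxcr2 reached the filter only with the ultrasound libraries, where they are high. The calls rested on several libraries, as did those over all genes. Leaving out any 1 of control 2, control 3, ultrasound 2 and ultrasound 3 left 0 of all 10655 genes and 0 of the 104. Of the 104, 37, 40, 49 and 46 then had an unadjusted p under 0.05. Without ultrasound 1, 69 passed, where 53.7% of all genes did, and without control 1, 30 passed.

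Of 15 further cDC1 genes, 9 were tested, 3 rose and 0 fell, with a median log2 change of 0.54. Naaa, a lysosomal amidase, rose from 12.8 ± 6.41 FPKM in the controls to 55.1 ± 7.74 with ultrasound (SD, n = 3 each; limma adjusted p 0.0304), Ifi205 from 1.87 ± 1.17 to 10.3 ± 3.07 (0.0304) and Fkbp1b from 0.295 ± 0.343 to 1.94 ± 0.604 (0.0333). Fkbp1b reached the filter only through the ultrasound libraries, where it is high, so its call is not support by itself. It had 27, 7 and 1 reads in control 1, 2 and 3 and did not pass in voom (adjusted p 0.066). Naaa, Ifi205 and Fkbp1b were high in ultrasound 1 too, at 61.1, 7.51 and 2.63 FPKM, whereas Cadm1 was the 1 member above every control there. Ly75, the endocytic receptor DEC-205, and Itgae, an integrin that CD8 T cells also carry, had log2 changes of -0.32 and -0.39 and did not pass (limma adjusted p 0.222 and 0.0953). The Toll-like receptors Tlr3 and Tlr11 did not reach the filter and showed the members' pattern, with Tlr11 at 0.645, 0.561 and 0.283 FPKM in the controls, against 0.310, 2.77 and 2.13 in ultrasound 1, 2 and 3. Snx22 and Septin3, also under the filter, lay above every control in ultrasound 2 and 3 but not in ultrasound 1. Rab7b, under it too, was above every control in ultrasound 1 as well. It had 0.416, 0.169 and 0.292 FPKM in the controls, against 0.959, 1.68 and 1.61 in ultrasound 1, 2 and 3. Gpr33 had 0 to 6 reads per library, and Tlr12, which was tested, had a log2 change of 0.12 (limma adjusted p 0.591).

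Of 12 transcription factors of dendritic cell development, 12 were tested, 1 rose and 1 fell. Spi1, which encodes the myeloid and B cell factor PU.1, rose from 21.4 ± 11.8 to 86.9 ± 26.0 FPKM (mean and SD, n = 3 each; limma adjusted p 0.0312). Irf4, the counterpart of Irf8 in the other conventional subset and also a factor induced by T cell receptor signals, fell from 25.3 ± 2.26 to 15.2 ± 1.15 (0.0304). Id2, needed by the cDC1 lineage and abundant in T cells, had 107 ± 15.7 and 124 ± 2.52 FPKM (0.232), and Nfil3, which acts before Batf3, had 9.84 ± 1.29 and 5.58 ± 2.44 (0.111).

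Of 12 ligands, cytokines and partners, 8 were tested and 2 rose. They were the receptor chains for GM-CSF, Csf2ra from 2.66 ± 1.24 to 8.06 ± 2.23 FPKM and Csf2rb from 9.97 ± 5.82 to 36.2 ± 5.46 (SD, n = 3 each; limma adjusted p 0.0392 and 0.0312). Flt3l, the ligand of Flt3, had 37.8 ± 1.71 and 41.7 ± 5.54 FPKM (0.436). Xcl1, the ligand of Xcr1, had 44.0, 41.1 and 32.3 FPKM in the controls, against 18.5, 29.7 and 31.9 in ultrasound 1, 2 and 3 (0.143), and Crtam, the partner of Cadm1, had 29.3 ± 2.07 and 22.4 ± 3.14 (0.0968). For both of these T cell genes every ultrasound library was below every control, the opposite direction to Cadm1, as for 8.96% of the 10655 genes. Cxcl10, a chemokine, had the lowest log2 change of this list, -1.0 (limma adjusted p 0.226). The IL-12 subunits did not reach the filter: Il12a had 0.558 ± 0.200 and 2.10 ± 1.09 FPKM and Il12b 1.27 ± 1.19 and 0.428 ± 0.0541 (SD, n = 3 each).

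Of 9 cross-presentation genes, 9 were tested and 2 rose, both subunits of the phagocyte oxidase: Cybb from 26.7 ± 11.4 to 65.7 ± 13.5 FPKM and Cyba from 171 ± 26.9 to 258 ± 27.7 (SD, n = 3 each; limma adjusted p 0.0439 and 0.05, the latter just under the threshold). The peptide transporter genes Tap1 and Tap2 had log2 changes of 0.05 and -0.05 (0.765 and 0.664), and the aminopeptidase gene Lnpep had the lowest of the list, -0.48 (0.394). Of 7 genes of conventional dendritic cells in general, Cst3, which encodes cystatin C, rose from 133 ± 54.3 to 391 ± 127 FPKM (0.0440). The other 6 did not pass and had negative log2 changes, from -0.04 for Ccl22 to -0.40 for Fscn1 (0.891 and 0.544), so that the median of the list was -0.17. Ccr7 and Dpp4, which T cells also express, were below every control in all 3 ultrasound libraries, with log2 changes of -0.36 and -0.38 (0.0877 and 0.0924).

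Marker genes of other cells were read in the same libraries, and which cells carried their RNA was not tested. Of 6 genes of the CD11b-type conventional dendritic cell, 5 were tested and 2 rose, Sirpa from 15.4 ± 6.98 to 50.8 ± 10.6 FPKM and Clec10a from 1.07 ± 0.189 to 4.69 ± 1.84 (SD, n = 3 each; limma adjusted p 0.0311 and 0.0315). Clec10a had 1.28, 0.97 and 0.944 FPKM in the controls and reached the filter only with the ultrasound libraries, where it is high. Its call is therefore not support by itself. Clec4a4 had the lowest log2 change of that list, 0.05 (limma adjusted p 0.91). Of 11 plasmacytoid genes beside Siglech, 7 were tested and 0 passed in limma, with 1 at an unadjusted p under 0.05 (Pacsin1, log2 change -0.27). Their summed level was 195 to 238 FPKM in the controls and 170, 383 and 408 FPKM in ultrasound 1, 2 and 3, most of it from Bst2, Irf7 and Ly6d, which other cells express.

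The B cell list was likewise high in ultrasound 2 and 3. In ultrasound 1 it was low, whereas 6 of the 10 members lay between the lowest and highest control there. Its 9 genes, of which Cd79a was the most abundant, summed to 358, 233 and 231 FPKM in the controls, against 171, 903 and 781 in ultrasound 1, 2 and 3. All 9 were highest in control 1 among the controls, below every control in ultrasound 1 and above every control in ultrasound 2 and 3, as were 36.0%, 23.1% and 45.9% of the 10655 genes, each taken by itself, and 0 of the 8 tested passed with all libraries in limma (0 at an unadjusted p under 0.05). Their log2 changes ran from 0.21 for Ms4a1 to 1.15 for Fcer2a. The NK cell list of 6 genes, led by Gzma, summed to 23.5 to 32.6 FPKM in the controls, against 27.5, 207 and 107 in ultrasound 1, 2 and 3, and 6 of 6 were above every control in ultrasound 2 and 3. Klrb1c, which encodes NK1.1, was the 1 that passed, from 1.57 ± 0.412 to 7.44 ± 2.02 FPKM (mean and SD, n = 3 each; limma adjusted p 0.0297). Ncr1, the NK receptor NKp46, had at most 0.53 FPKM outside those libraries and 5.85 and 5.05 in them. The part of B cells and NK cells in the members' values was not tested.

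Myeloid lists differed from the members in ultrasound 1. The monocyte list of 10 genes, of which Lyz2 was the most abundant over the 6 libraries, summed to 678 to 998 FPKM in the controls, against 2072, 2351 and 3737 in ultrasound 1, 2 and 3, and 9 of 10 were above every control in ultrasound 1, where 44.6% of genes were. The neutrophil list of 9 genes, led by S100a9, summed to 181 to 561 FPKM in the controls and to 2232 in ultrasound 1, against 621 and 652 in ultrasound 2 and 3. Of the 10 monocyte genes 7 rose (Lyz2, Csf1r, Cd68, Fcgr1, Ccr2, Itgam and Treml4), with log2 changes of 1.42 for Ccr2 to 2.69 for Lyz2. Ly6c2 had the lowest change of that list, 0.17 (limma adjusted p 0.628). Of the 9 neutrophil genes 3 rose, Mmp8 by 1.79, Cxcr2 by 1.77 and Csf3r by 2.19 on the log2 scale (limma adjusted p 0.0304, 0.0311 and 0.0307). In the controls Mmp8 had 2.16, 0.687 and 0.867 FPKM and Cxcr2 3.51, 0.951 and 1.25. Both reached the filter only with the ultrasound libraries, where they are high, so their calls are not support by themselves. Of the 6 red pulp macrophage genes 0 passed (limma, 6 at an unadjusted p under 0.05), with C1qb the highest at 1.11 and Vcam1 the lowest at 0.65. The CD8 T cell list summed to 2634 to 2764 FPKM in the controls, against 2290, 2876 and 2656 in ultrasound 1, 2 and 3. Of its listed genes 9 of 9 lay below every control in ultrasound 1, as did 23.1% of the 10655 genes. No gene of these marker lists was at 0 in any library, and the part of myeloid cells and of the lower T cell level in ultrasound 1 was not tested.

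**Figure D5:**
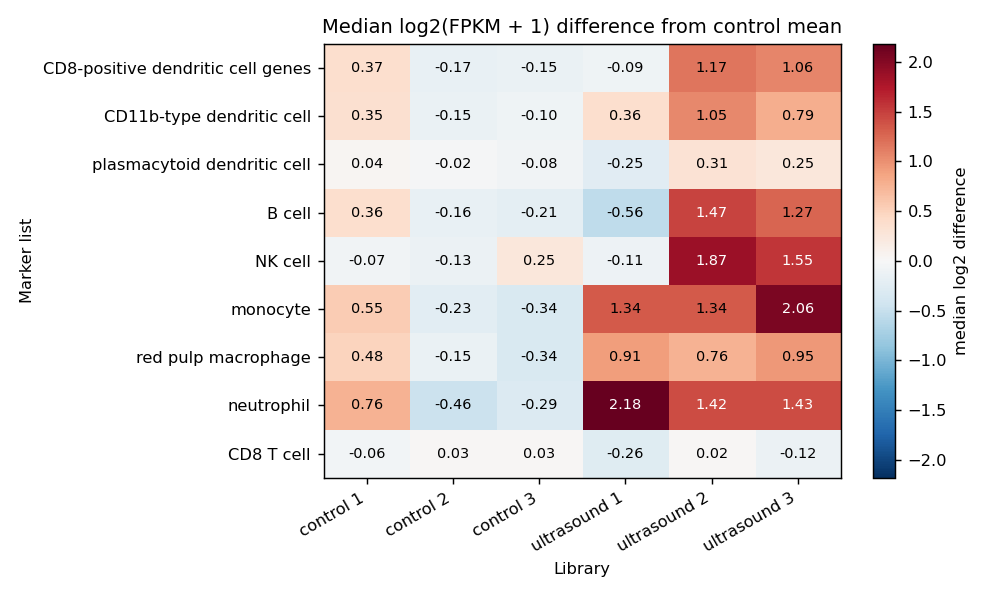
Median difference in log2(FPKM + 1) from the control mean for the 10 members and for 8 marker lists (rows) in each library (columns). The members, at -0.09, 1.17 and 1.06 in ultrasound 1, 2 and 3, are negative in ultrasound 1 and over 1 in ultrasound 2 and 3, as are the B cell and NK cell rows, while monocyte and neutrophil rows are over 1 in ultrasound 1.

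Genes other than the members with the most similar course were sought among the 10655 tested genes, by the smallest root-mean-square difference over the 6 libraries from the centred log2(FPKM + 1) profile averaged over Xcr1, Clec9a, Wdfy4 and Cadm1. The match is to this average and not to any single member. Of these genes, only Cadm1 lay above every control in ultrasound 1, and the log2(FPKM + 1) scale understates the change of low genes such as Xcr1. The nearest 5 were Trim7, Cyb561a3, Pik3ap1, Snx8 and Asb2, with differences of 0.0547 to 0.0811 on the log2 scale. Trim7 had 3.48, 2.18 and 2.37 FPKM in the controls, against 2.64, 8.38 and 7.18 in ultrasound 1, 2 and 3. Pik3ap1, a signalling adaptor of B cells and myeloid cells, had 12.3 to 18.5 FPKM in the controls, against 15.2, 34.1 and 33.8 in ultrasound 1, 2 and 3. None of the 5 passed with all 6 libraries (limma adjusted p 0.123 to 0.182).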

How the data were processed

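RNA-seq was made from sorted splenic CD8 T cells in 3 control and 3 ultrasound libraries, grouped by the sample titles. HISAT2, HTSeq, DESeq2, R 3.2.0 and the build mm10 are listed per the submitters' processing notes, without their settings. The authors' table gives FPKM per library, and per the file headers a signal set of mean DESeq2 normalized counts over all samples and each group. The fold change ratio, its log2 and the p-value and q-value columns are the authors' own comparison, per the file headers. Whole reads were recovered from the FPKM and group means: of 37238 values up to 100 normalized counts, 100% lay within 0.05 of a whole number, so depth is 35024080 to 38113103 reads.

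The main test was limma 3.58.1 (trend, robust; R 4.3.3) on log2(FPKM + 1) for genes with at least 1 FPKM in 3 libraries, two-sided, with Benjamini-Hochberg adjustment over all genes and a threshold of 0.05. The fit and the read recovery were tested on simulated data. The members and lists were chosen with earlier results of these data known. Named genes are all members, list genes past the threshold, extremes and most abundant genes of lists (not for every list), and the 5 nearest patterns. The list symbols Sept3 and Amica1 were matched to Septin3 and Jaml through RefSeq synonyms, and Trac found no match, which left 131 of 132 symbols. Positions and promoters are from RefSeq GRCm38.p6, the assembly mm10 names. Tlr3, Tlr11, Tlr12, Rab7b, Snx22, Septin3, Gpr33, Il12a, Il12b, Ncr1, Tap1, Tap2, Id2, Flt3l, Xcl1, Crtam, Ly75, Irf7, Ccl22, Dpp4 and Cd8a were named outside this rule, after their values were seen. Alternatives covered the pseudocount, filters, scaling, voom, the robust option, a replicate block, libraries left out and the authors' values. Those combining a filter of a mean of 10 reads with voom, the block or left-out libraries, and 4 for the list genes, were chosen after seeing the data. Summaries and figures used pandas 2.3.3, numpy 2.4.6 and scipy 1.17.1 with matplotlib 3.10.9 under Python 3.11.15.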

Additional observations from a re-analysis of the deposited data

How the results depend on the processing

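Counts of genes past an adjusted p of 0.05, members and other list genes, were 864, 0 and 23 in the main limma fit. Without a filter they were 0, 0 and 0, while 4216, 1 and 57 had an unadjusted p under 0.05. A mean of at least 10 reads gave 539 genes, median-of-ratios size factors 468, voom on recovered reads 568, and voom with a mean of at least 10 reads 159 genes and 4 list genes. The authors' deposited table gives q under 0.05 to 2179 genes, 3 members and 45 list genes. Ultrasound 1 alone against the controls gave 49 genes and 0 list genes, while 2158 and 51 had an unadjusted p under 0.05, and it gave 150 and 0 with a mean of at least 10 reads.

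Leaving out 1 library gave 0 to 5727 genes, 0 to 4 members and 0 to 69 list genes, and 0 to 6225, 0 to 9 and 0 to 74 with a mean of at least 10 reads. Leaving out ultrasound 1 gave the highest of these counts. Without control 1 there were 567 genes (384 with a mean of at least 10 reads) and 1 member, Batf3 at a log2 change of 1.18 and limma adjusted p 0.0485, which did not pass with a mean of at least 10 reads (0.0703, 0 members). Leaving out control 2, control 3, ultrasound 2 or ultrasound 3 gave 0 members and 0 genes, and the unadjusted p was under 0.05 for 1962, 2154, 2058 and 1998 genes.

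Replicate numbers were not taken as a pairing, since the correlations of deviations within a number were -0.04, 0.05 and 0.06. In the fit with the replicate block 0 genes, 0 members and 0 list genes passed under either filter, with 3249, 0 and 53 at an unadjusted p under 0.05 under the main filter and 3705, 1 and 56 with a mean of at least 10 reads.

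Of 175 results for single members under alternatives, 150 kept their direction and their side of the threshold, 17 newly passed and 8 changed direction. All 8 came from ultrasound 1 alone against the controls: Xcr1 at -0.08, Clec9a -0.19, Siglech -0.43, Zbtb46 -0.21, and Wdfy4 -0.10 and Flt3 -0.67 under both filters. The cause was not tested. Levels under 1 FPKM rest on 13 to 641 reads per library.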

Other observations

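Read shares against Clec9a were also taken for Siglech, Batf3 and Cadm1. Siglech gave 41.6% to 57.6% of the Siglech and Clec9a reads in the controls, 22% in ultrasound 1 (exact 95% interval 12.3% to 34.7%), 29.0% in ultrasound 2 (25.7% to 32.4%) and 27.0% in ultrasound 3 (23.6% to 30.5%). Batf3 gave 53.0% to 59.7% of the Batf3 and Clec9a reads in the controls, 75.1% in ultrasound 1 (68.3% to 81.2%), 26.1% in ultrasound 2 (22.9% to 29.5%) and 30.9% in ultrasound 3 (27.5% to 34.5%). Cadm1 gave 67.2% to 81.9% of the Cadm1 and Clec9a reads in the controls, 89.7% in ultrasound 1 (86.5% to 92.3%), 55.4% in ultrasound 2 (52.5% to 58.3%) and 54.8% in ultrasound 3 (51.8% to 57.8%). The intervals cover counting error only, and differences between the groups in these shares were not tested.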
